A study of Homo sapiens with 9 samples.

Results

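The Schlafen genes encode a family of proteins that share a core fold with nuclease activity and, in the longer members, a helicase-like domain. The data described here are the messenger RNA levels of SLFN11 and its relatives SLFN5, SLFN12, SLFN13 and SLFN12L, taken as the rows of the deposited table whose gene identifiers carry these symbols. Of these 5 genes, 4 were among the 33264 rows, and SLFN12L was not analysed here. SLFN11 and its relatives were chosen by their measured values, in that SLFN11 was far lower in both drug-resistant lines than in the parent line. Which contrasts entered that choice is not recorded beyond the levels in the 3 groups. Those against parent were taken as the choice and are given as a description with no test, and the tests of R50_OFF against R50 rest on that assumption. Near-identical stretches among Schlafen genes could share reads between them, and how such reads were counted is not given in the sources used here.

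The 9 libraries came from U87MG, a long-established line of human glioblastoma cells, with 3 libraries in each of 3 groups. The untreated parent line (parent) was compared with a pair of clonal lines raised from it by extended exposure to 50 µM temozolomide, a DNA-alkylating drug used against glioblastoma. One line stayed in 50 µM temozolomide (R50), and the other was released from the drug after 2 months of treatment (R50_OFF). For how long R50_OFF had then been without drug is not given in the sources used here. Each resistant line stands for 1 clone, and nothing says that its 3 libraries came from separate cultures, so the p-values cover the spread between these libraries alone, and that spread may be technical.

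As background, SLFN11 is recruited to stressed replication forks by the single-strand binding protein RPA and blocks further replication there, and cells that lack it tolerate many DNA-damaging drugs better. It also cleaves certain transfer RNAs. SLFN5 is a nuclear member with the helicase-like domain, SLFN12 is a ribonuclease that is activated when it binds the phosphodiesterase PDE3A, and SLFN13 is a ribonuclease that cuts transfer and ribosomal RNA. Several Schlafen genes respond to interferon.

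The promoters of SLFN11 and SLFN12 are shown because these neighbouring genes, read from the same strand, lay on opposite sides of parent in R50. Each sequence is the RefSeq entry on GRCh38.p14, minus strand, of 250 bases before to 50 bases after the annotated start. Capitals mark 2 motifs: CCGGAA, the core bound by ETS transcription factors, and TTCNNNGAA, the element bound by STAT dimers, each searched on both strands.
SLFN11, chr17:35373572-35373871: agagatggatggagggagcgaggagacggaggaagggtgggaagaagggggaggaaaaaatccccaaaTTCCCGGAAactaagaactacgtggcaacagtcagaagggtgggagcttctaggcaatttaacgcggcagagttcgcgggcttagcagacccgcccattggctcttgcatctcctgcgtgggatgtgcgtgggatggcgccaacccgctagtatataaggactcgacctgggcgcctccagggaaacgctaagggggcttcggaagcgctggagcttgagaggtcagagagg
SLFN12, chr17:35433125-35433424: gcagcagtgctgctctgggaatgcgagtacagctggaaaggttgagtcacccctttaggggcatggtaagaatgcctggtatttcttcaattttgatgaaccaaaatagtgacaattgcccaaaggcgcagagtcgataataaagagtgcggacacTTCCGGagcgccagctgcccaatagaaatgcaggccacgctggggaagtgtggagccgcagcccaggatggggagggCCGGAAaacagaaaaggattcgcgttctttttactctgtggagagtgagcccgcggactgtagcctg
In the SLFN11 window both motifs overlap in a single run, with TTCNNNGAA beginning at -182 and CCGGAA at -179 from the start. The SLFN12 window held CCGGAA at -94 and at -17 and had no TTCNNNGAA. Of 35116 RefSeq promoter windows of this length, 17.2% held CCGGAA and 7.66% held TTCNNNGAA. SLFN11 had 18 CpG sites in its window and SLFN12 had 13, beside a median of 14 over all windows. A match in letters is a description of the sequence, and neither binding nor methylation was measured.

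The libraries held 28.7 M to 35.8 M reads as traced from the deposited values. R50 replicate 2 stood apart, with a chi-square per gene of 15.01 and 18.08 against the other R50 libraries, beside 2.37 to 6.93 in the other pairs of replicates. The 8 glioblastoma line markers, all in the table, summed to 339640 to 347673 in parent, 226074 to 240620 in R50 and 304712 to 325250 in R50_OFF, mostly VIM and CD44. The glial marker GFAP averaged 4.59, 6.01 and 2.67, and S100B and SOX2 were listed at 0 in parent. S100B averaged 0.659 in R50 and 0.593 in R50_OFF, whereas SOX2 averaged 39.5 and 24.7. Single markers moved in different directions. In parent, R50 and R50_OFF, CHI3L1 averaged 5060, 14817 and 665, NES 65.2, 63.6 and 20.7, and OLIG2 20.3, 16.7 and 75.4. White blood cells are rich in Schlafen transcripts, so 8 of their markers were checked. The 7 of them in the table summed to 167 to 181 in parent, 63.6 to 88.0 in R50 and 83.3 to 93.6 in R50_OFF. CD2 was the larger part of it in parent, at means of 127, 12.7 and 43.6 in the 3 groups. ITGAM, of myeloid cells, averaged 0.667, 24.2 and 5.81, higher than parent in R50 and in R50_OFF (limma adjusted p = 0.000139 and 0.0162). PTPRC, which marks all white blood cells, averaged 0.979, 0.870 and 0.968, and CD3E was at 0 in all libraries but 1 of R50, which had 3 reads. Endothelial markers, 4 of 4 in the table, summed to 352 to 386, 251 to 301 and 153 to 168, mostly PECAM1. Within that sum CDH5 averaged 0.585, 18.8 and 0.179, and KDR 9.17, 0.169 and 13.0. Whether these marker sets have a part in the results was not tested.

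SLFN11 (ENSG00000172716, chr17:35350305-35373701, minus strand) was clearly detected in the parent line, at 513 to 680 traced reads per library, and was near 0 in both resistant lines. The deposited values are a signal normalized between libraries and divided by transcript length in kilobases. SLFN11 stood at 1009.9, 1054 and 956 in parent replicates 1 to 3, at 7.65, 10.9 and 3.23 in R50, and at 8.55, 5.70 and 8.96 in R50_OFF. All 6 resistant libraries therefore lay far below all parent libraries, while R50 and R50_OFF overlapped. The means were 1007 ± 49.0 (SD, n = 3) in parent, 7.25 ± 3.83 in R50 and 7.74 ± 1.78 in R50_OFF, which put R50 at 0.720% and R50_OFF at 0.769% of parent.

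The residual signal of SLFN11 rested on few reads. Traced back to whole reads, the gene had 570, 680 and 513 in parent, 5, 7 and 2 in R50, and 5, 4 and 5 in R50_OFF. Summed over a group that was 18.8 reads per M reads in parent, with an exact Poisson 95% interval of 18.0 to 19.7 that covers counting error only. It was 0.153 in R50 with an interval of 0.0835 to 0.256, and 0.147 in R50_OFF with an interval of 0.0805 to 0.247. In bulk samples, fewer cells that express a gene and less RNA in each cell cannot be told apart.

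**Figure D1:**
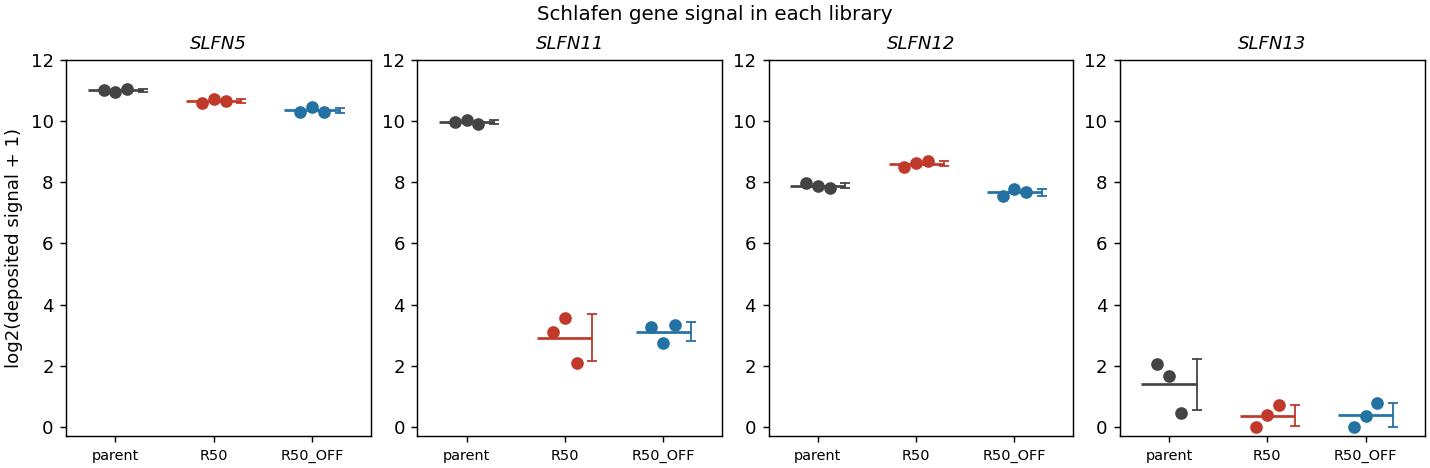
Signal of 4 Schlafen genes in each of 9 libraries, as log2(deposited signal + 1) on the vertical axis, with the 3 libraries of each group as points, and the mean and SD on that scale as a line and a bar. SLFN11 lies between SLFN5 and SLFN12 in parent and far below both in R50 and R50_OFF, SLFN5 declines in smaller steps, SLFN12 is highest in R50, and SLFN13 is low throughout.

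On the scale of the fit, log2(signal + 1), the difference of SLFN11 from parent was -7.06 in R50 and -6.87 in R50_OFF. Without R50 replicate 2 the R50 value was -7.38. Among the 16456 genes that reached a signal of 10 in at least 3 libraries, SLFN11 had the 6th lowest change in R50 and the 3rd lowest in R50_OFF. It passed this minimum through its parent libraries and R50 replicate 2 alone. The parent libraries are shared by both comparisons, so their likeness is no independent evidence.

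Between the resistant lines SLFN11 had 14 reads against 14, and the groups overlapped. R50_OFF minus R50 was 0.18 (SE 0.33) on the log2 scale, and it was -0.23 when the lowest library, R50 replicate 3, was left out. Since the gene was in the fit through its parent level, this is a description and shows neither a difference nor its absence.

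SLFN5 (ENSG00000166750, chr17:35243071-35273655, plus strand), the member with the highest signal, declined from parent through R50 to R50_OFF. It stood at 2074, 2004 and 2148 in parent, at 1548, 1687 and 1631 in R50, and at 1258, 1399 and 1262 in R50_OFF, and no group overlapped another. The means were 2075 ± 71.9, 1622 ± 70.1 and 1306 ± 80.3, so that R50 held 78.2% and R50_OFF 62.9% of the parent level. These rest on 2951 to 5419 reads per library. R50_OFF was lower than R50 by a tested change of -0.31 (SE 0.06, limma adjusted p = 0.000791, 95% interval -0.44 to -0.19), with all 3 libraries below all 3 of R50.

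SLFN12 (ENSG00000172123, chr17:35410922-35433283, minus strand) did not follow SLFN11. It stood at 250.0, 234 and 223 in parent, at 365, 393 and 410.4 in R50, and at 188, 219 and 206 in R50_OFF. The R50 libraries were above all others, and the R50_OFF libraries lay just below parent, the highest of them at 219 against the lowest parent library at 223. The means were 236 ± 13.6, 389 ± 22.8 and 204 ± 15.8, or 165% of parent in R50 and 86.7% in R50_OFF. R50_OFF was lower than R50 by a tested change of -0.93 (SE 0.09, limma adjusted p = 5.06e-06, 95% interval -1.12 to -0.74). Across all tested genes, 59.5% were called in that contrast (29.3% lower and 30.2% higher) and the typical absolute change was 0.39, so 2 of the 3 tested members being called there is near the background, and the change of SLFN12 was above the typical size.

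SLFN13 (ENSG00000154760, chr17:35435096-35448837, minus strand) did not reach the minimum signal and was not tested. It stood at 3.16, 2.15 and 0.369 in parent, at 0, 0.307 and 0.641 in R50, and at 0, 0.282 and 0.710 in R50_OFF. The traced reads were 9, 7 and 1 in parent, 0, 1 and 2 in R50, and 0, 1 and 2 in R50_OFF. The highest values were in parent, but parent replicate 3 lay within the range of the resistant lines. Of the family members outside the rule, SLFN14, which encodes a ribosome-associated endoribonuclease, had 1 read in 1 R50_OFF library and was listed at 0 in the other 8. SLFNL1, a Schlafen-like gene on chromosome 1, averaged 3.48 ± 2.61 in parent, 3.92 ± 2.38 in R50 and 1.79 ± 1.53 in R50_OFF.

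For orientation, the shares of tested genes called against parent were 63.3% in R50 and 52.0% in R50_OFF. Against parent all 3 tested members had groups that did not overlap, in both resistant lines, a count from which nothing is read because these contrasts chose them. The share of all tested genes with groups that did not overlap is not given here, and the shares called are a different measure.

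The order of levels within the family differed between parent and the resistant lines. In parent it was SLFN5, SLFN11, SLFN12 and SLFN13, and in R50 and R50_OFF it was SLFN5, SLFN12, SLFN11 and SLFN13. No neighbours in either order overlapped in their 3 libraries. The distances between genes depend on the length used. The deposited values divide SLFN11 by 606 bases and SLFN12 by 988 bases, whereas the longest GENCODE transcripts are 5139 and 2539 bases. Rescaled to the longest transcript, an alternative chosen after seeing the data, parent had 119 for SLFN11 and 91.7 for SLFN12 in place of 1007 and 236, with the same order. Ratios of means between groups do not depend on the length, but changes on the log2(signal + 1) scale do for low genes.

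The Schlafen cluster on chromosome 17 runs from SLFN5 to SLFN14 (chr17:35243071-35560819, hg38), and the genes around it were measured beside SLFN11. Within 1 megabase of either end, 23 other genes were tested. In R50, 3 of them were lower and 11 higher than parent, with a median change of 0.30 and a range of -0.62 to 3.88. Over all tested genes 31.7% were lower and 31.6% higher in R50, at a median of 0.02. In R50_OFF, 5 were lower and 6 higher, with a median of 0.06 and a range of -1.33 to 2.19, beside 25.7% and 26.3% of all tested genes at a median of 0.00. Over the 951 tested genes of the whole chromosome the median change was 0.02 in R50 and -0.00 in R50_OFF.

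**Figure D2:**
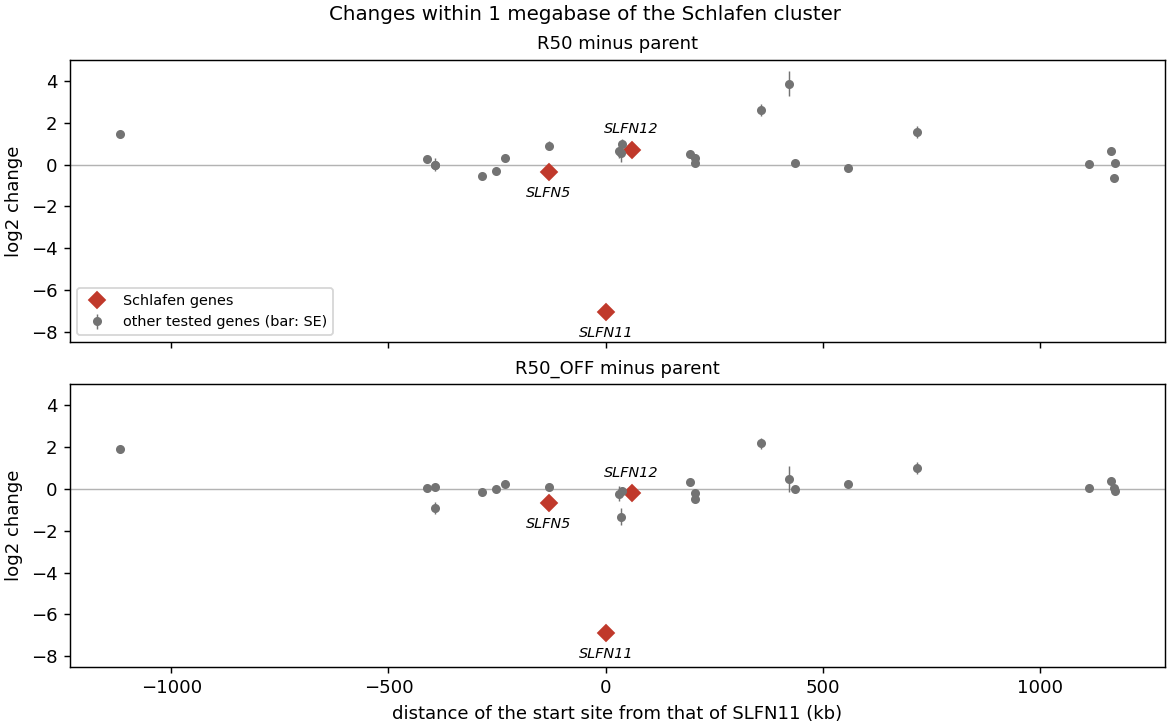
Change in log2(signal + 1) against parent (vertical axes; R50 above, R50_OFF below) for every tested gene within 1 megabase of the Schlafen cluster, by the distance of its start from that of SLFN11 in kilobases. Schlafen genes are diamonds with no error bar, other genes are circles with their SE. SLFN11 lies at -7.06 and -6.87, and the other genes lie between -1.33 and 3.88.

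The nearest tested protein-coding gene on the side of SLFN5 was NLE1, a ribosome assembly factor. NLE1 stood at 946 ± 26.2 in parent, 1165 ± 29.7 in R50 and 1119 ± 37.3 in R50_OFF, and rose in both lines (limma adjusted p = 0.000303 and 0.00188). The largest changes in the window were of genes with low signal, whose size depends on the pseudocount: the 3.88 of MMP28 became 1.62 with a pseudocount of 8. The matrix protease gene MMP28 went from 0.287 ± 0.497 in parent, where the highest library had 1 read, to 18.1 ± 7.84 in R50. The small GTPase gene RASL10B rose from 8.35 ± 3.41 to 54.2 ± 8.11 in R50 and 40.1 ± 4.26 in R50_OFF. The chemokine gene CCL2 rose from 27.2 ± 7.80 to 76.5 ± 13.1 and 102 ± 6.15.

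Genes with a pattern like that of SLFN11 were ranked by their distance to it over the 9 libraries, each gene taken as log2(signal + 1) minus its parent mean. The 5 nearest were DTNBP1 (chromosome 6) at 1.37, MSN (X) at 1.48, NDN (15) at 1.54, MT3 (16) at 2.34 and CTAG2 (X) at 2.42. DTNBP1, NDN and CTAG2 were listed at 0 in all 6 resistant libraries and averaged 103 ± 6.02, 164 ± 17.1 and 68.1 ± 5.30 in parent. MT3 was 139 ± 43.0 in parent and above 0 in 1 resistant library. MSN, which links the membrane to actin, started far higher and kept a signal of 333 to 502 in each resistant library. None of these genes lies on chromosome 17. SLFN5, at 15.9, was rank 2583, and SLFN12, at 17.8, was rank 11487.

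Genes of proteins that work with SLFN11 at the fork were measured as a list of 8. In R50, 5 were lower than parent and 1 was higher, with a median of -0.30, beside 31.7% and 31.6% of all tested genes. MCM3, a subunit of the replicative helicase, was 3959, 3958 and 4023 in parent and 1929.8, 1887 and 1856 in R50, a fall of -1.07 (SE 0.04, limma adjusted p = 3.03e-09). CDT1, the replication licensing factor, fell from 2307 ± 47.3 to 1351 ± 59.8 (-0.77, adjusted p = 1.98e-07), and the RPA subunit RPA2 from 3885 ± 87.3 to 2636 ± 76.7 (-0.56, adjusted p = 7.40e-07). In R50_OFF, 2 were lower and 2 higher, with a median of 0.09, beside 25.7% and 26.3% of all tested genes. There CDT1 was higher than parent, at 3115 ± 123 (0.43, adjusted p = 3.39e-05), as was the ubiquitin ligase scaffold gene CUL4A, at 5482 ± 60.5 beside 3989 ± 160 (0.46). RPA2 was lower than parent in R50_OFF as well, at 3311 ± 76.8 (-0.23, adjusted p = 0.000927). MCM3 was 4166 ± 115 in R50_OFF and did not pass (adjusted p = 0.199), while R50_OFF minus R50 had a 95% interval of 1.05 to 1.23 (adjusted p = 5.00e-09). In the contrast of R50_OFF with R50, 5 of the 8 were higher in R50_OFF, and with quantile normalization 4 were higher and 3 lower. Over all tested genes 30.2% were higher and 29.3% lower in that contrast.

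The checkpoint list of 10 genes, which acts on the same stalled forks, had 8 lower and 2 higher in R50, with a median of -0.52, beside 31.7% and 31.6% of all tested genes. In R50_OFF 2 were lower and 2 higher, with a median of 0.02, beside 25.7% and 26.3%. ATR, the kinase that senses stalled forks, was 774 ± 19.8 in parent, 372 ± 40.0 in R50 and 433 ± 27.3 in R50_OFF, lower in both lines (-1.06 and -0.84, limma adjusted p = 9.06e-07 and 1.15e-05). CLSPN, an adaptor of the ATR pathway, was lower in both as well (-1.01 and -0.42). The phosphatase gene CDC25A fell in R50 from 2008 ± 132 to 1121 ± 66.4 and rose in R50_OFF to 2355 ± 24.9 (0.23, adjusted p = 0.00753). WEE1, an inhibitory kinase of the cell cycle, rose in both (0.48 and 0.27).

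The phosphodiesterase genes linked to SLFN12 were measured next. PDE3A, whose protein binds SLFN12, was 134, 173 and 169.6 in parent, 20.0, 19.0 and 22.1 in R50, and 105, 101 and 87.8 in R50_OFF. No group overlapped another, and R50 was lowest, where SLFN12 was highest. The changes were -2.90 in R50 (SE 0.14, limma adjusted p = 2.66e-08), -0.68 in R50_OFF (adjusted p = 0.00221) and 2.21 for R50_OFF minus R50 (adjusted p = 3.85e-07). PDE3B, a related phosphodiesterase, was 1.19 ± 0.831 in parent, 0.688 ± 0.133 in R50 and 15.0 ± 2.28 in R50_OFF, and rose in R50_OFF (adjusted p = 0.000625).

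**Figure D3:**
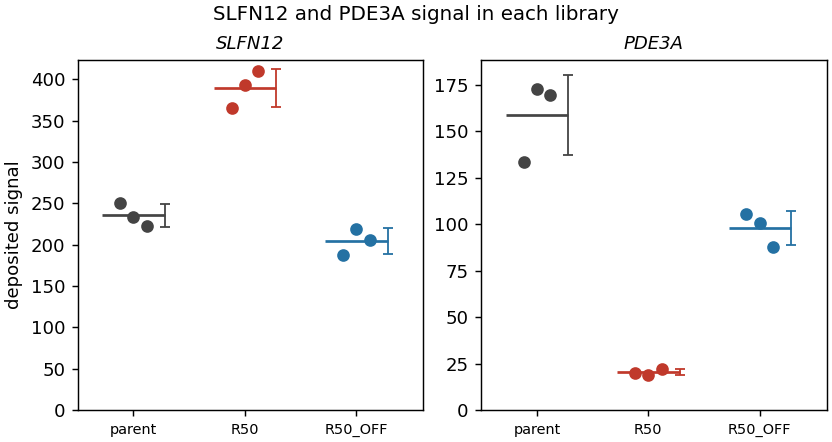
Deposited signal (vertical axes from 0) of SLFN12 and PDE3A in the 3 libraries of each group, with the mean as a line and the SD as a bar. In R50 SLFN12 is at its highest, 389 on average, and PDE3A at its lowest, 20.4.

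Silencing of SLFN11 in other cancers has been linked to DNA methylation, Polycomb and histone deacetylases, and its activation to ETS factors, so these gene lists were measured. Of 10 Polycomb and DNA methylation genes, 4 were lower and 2 higher in R50 (median -0.04), and 4 lower and 2 higher in R50_OFF (median -0.08). Over all tested genes 31.7% were lower and 31.6% higher in R50, and 25.7% and 26.3% in R50_OFF. The same shares stand beside the counts of the lists that follow. The maintenance methyltransferase gene DNMT1 was lower in both lines, falling from 14160 ± 197 to 9516 ± 112 in R50 and 10812 ± 336 in R50_OFF (-0.57 and -0.39, limma adjusted p = 3.03e-07 and 1.26e-05), with -0.37 in R50 under quantile normalization. UHRF1, which guides DNMT1, fell in R50 (-0.65) and rose in R50_OFF (0.33). DNMT3B rose in R50 from 43.4 ± 4.92 to 68.0 ± 8.21 (adjusted p = 0.00504), a call lost with quantile normalization (adjusted p = 0.0810). DNMT3A rose in R50_OFF, from 89.6 ± 13.9 to 243 ± 30.1 (1.43, adjusted p = 5.04e-05). EZH2, the Polycomb methyltransferase gene, was 1072 ± 21.2, 841 ± 77.2 and 1148 ± 17.6, a fall in R50 (-0.35, adjusted p = 0.000651). RBBP4, a histone-binding subunit of Polycomb complexes, was lower in both lines (-0.34 and -0.40), with -0.19 in R50 under quantile normalization. Of the class I histone deacetylases HDAC1, HDAC2, HDAC3 and HDAC8, only HDAC1 passed in R50, at -0.17, a call lost with quantile normalization (adjusted p = 0.663). The count of these genes called higher in R50 ranged from 0 to 2 over the processing alternatives. In R50_OFF the 4 had changes of -0.08 to 0.04, with adjusted p of 0.274 to 0.716.

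Of 14 tested ETS factor genes, 6 were lower and 5 higher in R50 (median -0.00), and 4 lower and 4 higher in R50_OFF (median -0.01). FLI1 was too low to test, with at most 0.857 in any library. ETS1 rose in R50 from 1564 ± 29.7 to 2365 ± 156 (0.59) and fell in R50_OFF to 1173 ± 33.3 (-0.41). ELK3 and ETV5 fell in R50, with changes of -1.21 and -1.19. In R50_OFF they were lower too, by smaller changes of -0.245 and -0.255 (limma adjusted p = 0.0133 and 0.000325). The ELK3 call in R50_OFF was lost in an alternative (adjusted p up to 0.0518). ETV4 fell in R50 (-0.52) and rose in R50_OFF (0.45). ERG was lower in both, but from a low signal of 13.7 ± 1.76 to 0.859 ± 0.756 and 1.85 ± 1.05.

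Interferon genes, listed because several Schlafen genes respond to interferon, moved in both directions. Of 14 signalling genes, 5 were lower and 4 higher in R50 (median -0.03), and 6 lower and 1 higher in R50_OFF (median -0.12). IRF9, a subunit of the interferon-activated transcription complex, was 45.1 ± 13.0 in parent, 23.5 ± 11.2 in R50 and 11.8 ± 3.56 in R50_OFF, and its fall in R50 (-0.98, limma adjusted p = 0.0370) was lost in 5 alternatives, with adjusted p up to 0.137 without parent replicate 2. The receptor genes IFNAR2 and IFNGR2 fell in R50 (-0.73 and -0.64). The receptor kinase gene JAK2 fell in R50_OFF (-0.84) and less in R50 (-0.31, adjusted p = 0.0221). The JAK2 call in R50 was lost in an alternative (adjusted p up to 0.0879). STAT2, another subunit of that complex, fell in R50_OFF from 434 ± 15.9 to 233 ± 40.2 (adjusted p = 0.000207). Of 21 tested interferon-stimulated genes, 10 were lower and 7 higher in R50 (median -0.35), and 5 lower and 5 higher in R50_OFF (median 0.08). The antiviral gene OAS3 fell in R50 from 473 ± 40.6 to 30.6 ± 13.7, whereas IFITM3 rose from 733 ± 17.6 to 9209 ± 1227. In R50_OFF IFITM3 was also higher than parent, at 3713 ± 127 (adjusted p = 6.93e-09). OAS3 did not pass there, at 500 ± 37.4 (adjusted p = 0.815). OAS2 was lower in both lines, at 21.5 ± 3.73, 4.30 ± 1.51 and 9.09 ± 2.09, a call that in R50_OFF was lost without parent replicate 2 or 3 (adjusted p up to 0.0644). IFITM1, listed at 0 throughout parent, averaged 324 ± 67.1 in R50 and 10.1 ± 3.41 in R50_OFF.

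**Figure D4:**
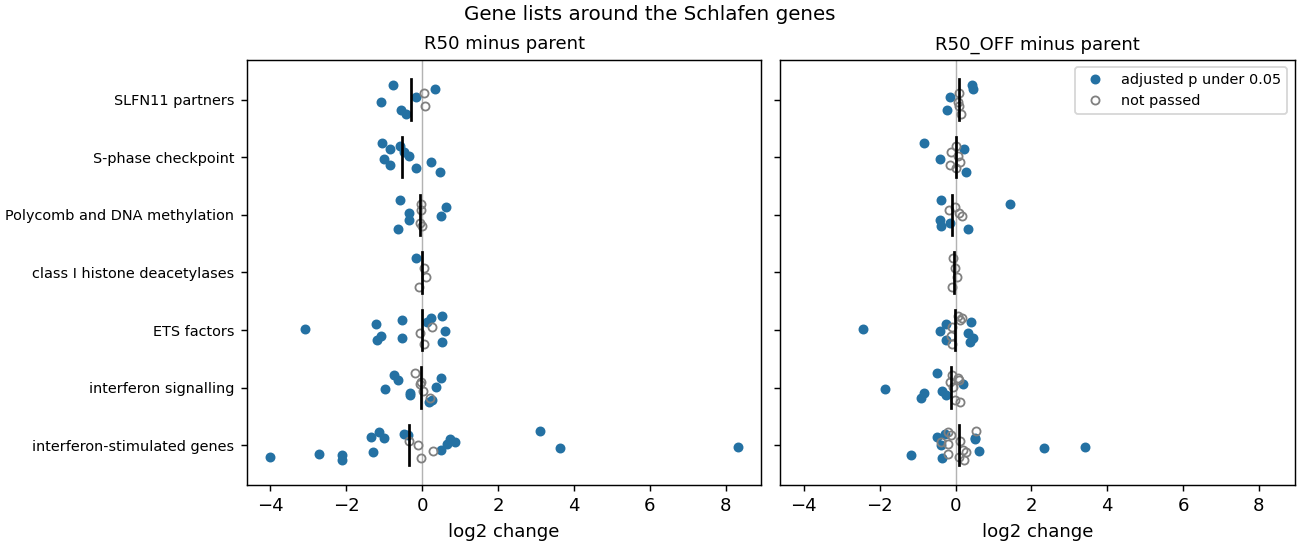
Change in log2(signal + 1) against parent (horizontal axes; R50 left, R50_OFF right) for the tested genes of 7 lists, with filled points for genes at adjusted p under 0.05 and a black bar at each list's median. The list medians lie between -0.52 and 0.09, and single genes spread more widely, in R50 from -4.00 (OAS3) to 8.32 (IFITM1, listed at 0 in parent, so that this fitted value depends on the pseudocount).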

How the data were processed

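RNA was measured by strand-specific poly-A sequencing with single-end reads, per the labels' protocols. Among tools bcl2fastq 2.17.1.14 is listed, and hg38 as the build, per the submitters' processing notes. No source used here names the aligner, counting tool, strand setting or annotation. The authors deposited a signal per gene that, per the file headers, is normalized (method not named) and then scaled by the gene's median transcript length. For 99.997% of genes the values were whole multiples of a read (relative tolerance 1e-06), which gave the traced reads, taken as the smallest whole numbers that match and so lower bounds. Symbols matched 33137 of 33264 identifiers (99.62%), and coordinates are GENCODE version 44 on hg38, counted from 1.

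Each gene's log2(signal + 1) was fitted with limma 3.58.1 under R 4.3.3, with a trended prior, all 9 libraries in 1 fit with 6 residual degrees of freedom, two-sided, with Benjamini-Hochberg adjustment over 16456 genes and a threshold of 0.05. Fold changes on this scale understate changes of low genes. The members, gene lists and naming rule were all chosen with earlier results of these data known. The rule took all members, SLFN14 and SLFNL1, up to 3 genes with the largest called changes against parent per list and line, whole lists of under 5 genes, the genes flanking the cluster with up to 3 others around it, and the 5 nearest to SLFN11. EZH2, FLI1 and the marker genes were named outside it, after their values were seen. Some genes that the rule takes are not reported here.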

Additional observations from a re-analysis of the deposited data

Results flagged for a closer look

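SLFN12 and SLFN5 differed between the resistant lines, by a test of the difference itself. The change of SLFN12 from parent was -0.93 lower in R50_OFF than in R50 on the log2 scale (limma adjusted p = 5.06e-06), and all 3 R50_OFF libraries lay below all 3 R50 libraries. For SLFN5 the difference was -0.31 (limma adjusted p = 0.000791), again with all 3 libraries below. What goes with these differences was not tested. Across all tested genes 59.5% were called in this contrast, so a call there is common. Both tests assume that this contrast did not enter the choice of the members.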

How the results depend on the processing

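Members, counts of calls and named genes were recomputed with a pseudocount of 0.1 or 8, no minimum signal, a minimum of 50, quantile normalization, a replicate block and each library left out. The planned tests on read counts were not run. With a pseudocount of 8 SLFN11 moved to -6.09 in R50 and -6.02 in R50_OFF, a scale that shrinks low values by construction, and with quantile normalization SLFN5 moved to -0.26 in R50 (the cause was not tested). Leaving out 1 library gave -7.38 to -6.64 and -6.98 to -6.69 for SLFN11 against parent, -0.23 to 0.51 for its R50_OFF minus R50 value, -0.36 to -0.28 for SLFN5 and -0.98 to -0.87 for SLFN12 in that contrast. Quantile normalization turned R50_OFF minus R50 of CUL4A to -0.0037 and of DNMT1 to -0.013, neither called there, and the cause was not tested. It also raised the R50 count of higher genes among the 8 SLFN11 partners from 1 to 3. Among the 23 genes around the cluster, the 5 lower in R50_OFF ranged from 2 (no minimum, or without parent replicate 2 or R50_OFF replicate 1) to 6. The 11 higher in R50 became 10 to 11 with 1 library left out and 7 to 15 over all alternatives. The count of interferon signalling genes lower in R50, 5, became 3 without parent replicate 1 or 2. That of Polycomb and DNA methylation genes lower in R50_OFF, 4, became 2 without parent replicate 2, parent replicate 3 or R50_OFF replicate 3. That of ETS genes became 2 in R50_OFF (lower, from 4) without parent replicate 2 and 3 in R50 (higher, from 5) without parent replicate 1. Same-numbered libraries share only a number: their deviations correlated at -0.021 to 0.1 over 9 pairs, and the best match bore the same number in 8 of 18 cases. With the replicate block R50_OFF minus R50 was -0.93 for SLFN12 (adjusted p = 2.19e-05), -0.31 for SLFN5 (0.00104) and 0.18 for SLFN11, and calls over all genes came to 10653, 8811 and 10046 in place of 10422, 8565 and 9785. Depth limits SLFN11 and SLFN13 in the resistant lines, where a library held at most 7 and 2 reads.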

Other observations

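Just below SLFN12 on the same strand lie 3 tested rows with no gene symbol, looked at after their values were seen and so given with no test. ENSG00000267102, a transcribed pseudogene (chr17:35409602-35410228) that ends 693 bases from SLFN12, stood at 32.5, 25.5 and 36.0 in parent, at 50.3, 71.9 and 70.3 in R50, and at 23.1, 27.5 and 36.4 in R50_OFF. Its R50 libraries lay above all others, and R50_OFF overlapped parent. ENSG00000267745, a long non-coding RNA that ends 1153 bases from SLFN12, stood at 14.5 ± 4.21, 21.9 ± 8.59 and 5.38 ± 2.47, and its R50 libraries overlapped parent. Its R50_OFF libraries, at 2.57, 6.41 and 7.17, lay below all parent and R50 libraries. ENSG00000267547, another long non-coding RNA, stood at 12.5 ± 3.63, 21.1 ± 9.53 and 10.3 ± 1.93, with R50 again overlapping parent. Beside the start of SLFN5, on the opposite strand, the long non-coding RNA ENSG00000266947 stood at 20.7 ± 2.48, 39.6 ± 4.90 and 22.2 ± 3.93. None of these rows overlaps SLFN12 or SLFN5 in the coordinates used here. ENSG00000267745 (chr17:35406684-35409768) and ENSG00000267102 overlap each other on the same strand. Whether reads were counted by strand is unknown here. That bears on the row opposite SLFN5 and not on those on the strand of SLFN12. Whether reads are shared among these rows, or between them and the Schlafen genes, was not tested.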
